A study of Mus musculus with 5 samples.

Results

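Gastric tumour organoids with a hairpin against Cdh1, the gene of the adhesion protein E-cadherin, were compared with gastric tumour organoids that kept the Cdh1 transcript. The members are 4 of the 5 arrays of the series, chosen by the sample descriptions: 2 organoid samples grown out of subcutaneous tumours with Trp53 loss and an shCdh1 hairpin (hairpin 1 and hairpin 2), against 1 sample with Trp53 loss and Apc580D and 1 with Trp53 loss and Pik3caH1047R. The fifth array was the control, organoids from Trp53flox/flox mice that carried the vector pLKO.1 with a luciferase hairpin (shLuc) and were taken before inoculation. All samples were labelled as stomach from female mice, and per the labels' protocols gastric organoids were propagated with EGF, R-spondin1, Noggin, Y27632, Jagged-1 and CHIR-99021, so that a Wnt agonist, a BMP antagonist and a GSK3 inhibitor were part of the medium. No age is given, nor the agent that removed Trp53, nor whether a sample is 1 clone, 1 tumour or a pool.

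E-cadherin joins neighbouring epithelial cells at the adherens junction. Its cytoplasmic tail binds p120-catenin (Ctnnd1), β-catenin (Ctnnb1) and plakoglobin (Jup), and α-catenin (Ctnna1) couples this complex to actin. β-catenin is also the transcriptional effector of canonical Wnt signalling. In the stomach, loss of E-cadherin is the defining lesion of hereditary diffuse gastric cancer.

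Levels are log2 signals relative to the 75th percentile of each array, so a level of 0 is that percentile and a difference of 1 is 2-fold; they compare arrays for one gene and not genes with each other. Of 17405 genes tested, 14818 had a probe well above background on all 4 tumour arrays. Each sample was 1 array, and nothing in the labels says that the hairpin samples came from separate cultures or animals, so the p-values measure only how these samples spread, which may in part be technical. Both shCdh1 arrays and the control were on slide 1, and the Apc580D and Pik3caH1047R arrays were on slide 2, so in this comparison genotype and slide cannot be told apart. The control is the one array without a Cdh1 hairpin on the slide of the shCdh1 arrays, and it also differs from them by Trp53 state and tumour growth. Its level is therefore given for the largest gaps and for many of the other genes. One sample went against its label: in the Pik3caH1047R array 4 genes of the Y chromosome, Eif2s3y (1.35), Kdm5d (−1.86), Ddx3y (−2.40) and Uty (−3.15), exceeded background, which they did on no other array, and Xist was at −8.14 against −0.83 and −0.82 with hairpins 1 and 2 and −0.69 in Apc580D. Median differences of gene lists are given with and without this array.

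Cdh1 separated the sides as the labels state. Its log2 level was 0.07 with hairpin 1 and 0.26 with hairpin 2, against 4.48 in Apc580D, 4.58 in Pik3caH1047R and 4.39 in the control. The hairpin pair lay together, far below the 3 other arrays, which also lay together. The shCdh1 mean was 20.7-fold lower than the mean of the other tumours (log2 difference −4.37 ± 0.21, SE of the limma fit, n = 2 against 2). This difference did not pass limma's Benjamini-Hochberg adjustment over all genes (adjusted p = 0.431), nor under any alternative run (adjusted p between 0.0749 and 0.687). Cdh1 remained well above background on both hairpin arrays. Trp53, which encodes the tumour suppressor p53, was at −5.06 and −5.09 with the hairpins, −5.86 in Apc580D and −4.86 in Pik3caH1047R, so its loss was shared by both sides, whose levels overlapped. In the control Trp53 was at 0.85. Apc and Pik3ca differed by 0.25 ± 0.21 and 0.81 ± 0.41, and these probes read transcript level only, not the lesion.

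Among the other genes of the adherens junction, α-catenin, β-catenin and plakoglobin did not separate with Cdh1. None of the 21 tested had a gap of at least 2-fold between the nearest arrays of the sides. α-catenin Ctnna1 was at 5.83 and 5.62 with the hairpins, 5.84 in Apc580D and 5.79 in Pik3caH1047R. For β-catenin Ctnnb1 the levels were 3.45, 3.83, 3.73 and 3.77 in the same order, and for plakoglobin Jup 1.00, 0.61, 0.68 and 0.95. The control was at 5.64, 3.58 and 0.66. The sides overlapped in all 3 genes, with differences of −0.09 ± 0.21, −0.11 ± 0.24 and −0.01 ± 0.26. p120-catenin Ctnnd1 lay slightly lower with both hairpins (4.21 and 4.17) than in Apc580D (4.31) and Pik3caH1047R (4.66), with the control at 4.17. The nectin Nectin3 (−2.05 and −2.18 against −1.78 and −1.66) and its actin-binding partner afadin, Afdn (−1.44 and −1.38 against −1.20 and −1.16), also lay lower with both hairpins, each by less than 0.5. Of 21 catenins and adherens junction partners tested, both shCdh1 arrays lay below both other tumours in 4 and above both in 5. Over all genes tested, both shCdh1 arrays lay below both other tumours in 13.1% and above both in 20.1%, which is the background for such counts throughout. The list's median difference was −0.11, against 0.03 over all genes, and −0.04 without Pik3caH1047R, −0.07 without Apc580D and −0.0 without hairpin 1. With quantile normalization 3 of its members lay higher, and with the mean of a gene's probes 2 lay lower.

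Other cadherins showed no common exchange for Cdh1. N-cadherin Cdh2, which mesenchymal and neural cells use, was at −3.74 and −1.38 with the hairpins against −1.24 in Apc580D and −2.68 in Pik3caH1047R, with the control at −4.41, so the sides overlapped. For P-cadherin, Cdh3, the other tumours (−1.52 and −3.52) lay between the hairpin arrays, the lower of which was at −3.85. The intestinal cadherin Cdh17 was at −1.79 and −5.49 against −3.86 and 0.87. The control was at −2.78 for Cdh3 and −7.12 for Cdh17. In each of these the hairpins differed from each other by more than 2 on the log2 scale. Of 22 cadherin family genes tested, 4 lay higher with both hairpins (Cdh6, Cdh8, Cdh9 and Cdh22, by differences of 0.28 to 0.72) and 4 lower (Cdh1, Cdh24, Cdh26 and Clstn3). Cdh1 was the single member with a gap of at least 2-fold between the nearest arrays of the sides.

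**Figure D1:**
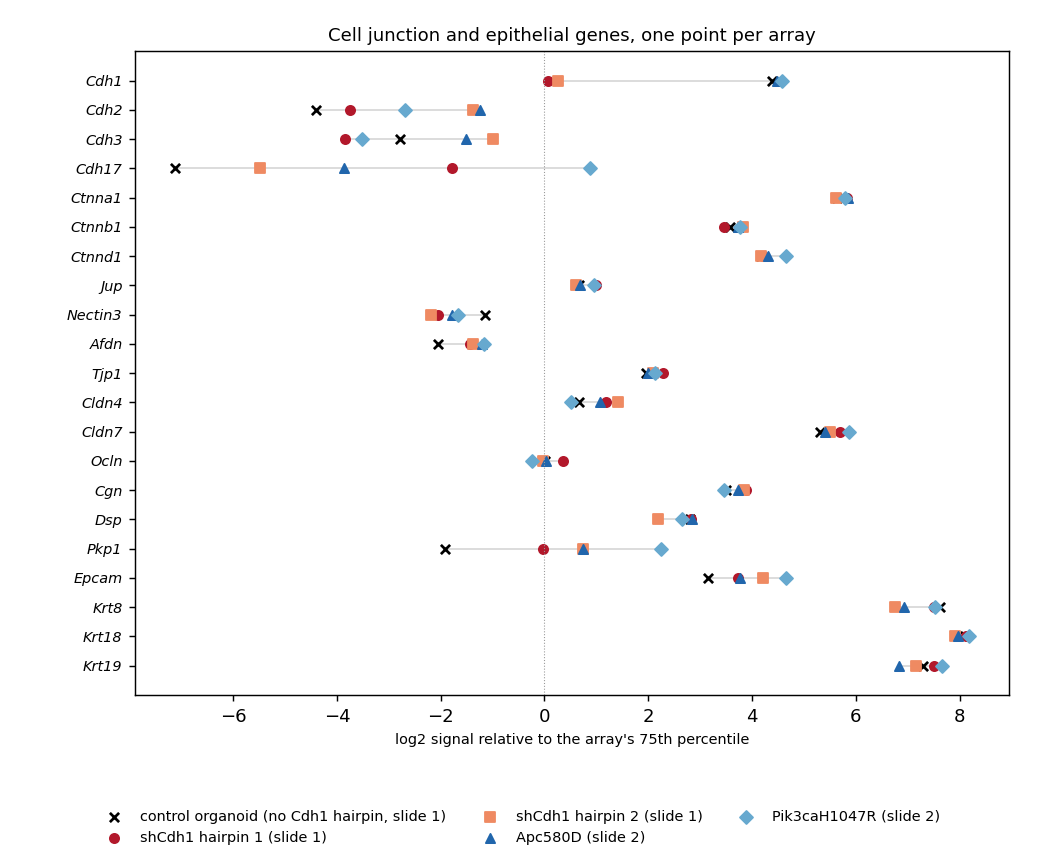
Log2 level relative to the array's 75th percentile (horizontal axis) of junction and epithelial genes (rows), with 1 point per array and a grey line over the range of the 5 arrays. Cdh1 stands at 0.07 and 0.26 in the shCdh1 arrays and between 4.39 and 4.58 in the others, while the catenins, Tjp1, Cldn7 and the keratins of simple epithelia lie together in all 5.

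Tight junctions, desmosomes and keratins of simple epithelia kept overlapping levels for most members. Of 24 tight junction genes, 4 lay higher with both hairpins and 4 lower, with a median difference of −0.01, and 0.01 without Pik3caH1047R. Claudin 4, Cldn4, was at 1.18 and 1.42 with the hairpins against 1.07 and 0.51, and claudin 12, Cldn12, at 3.02 and 3.16 against 2.71 and 2.94. The junctional adhesion molecule Jam2 was lower, at −4.44 and −4.97 against −3.38 and −3.11, with the control at −4.79. Among 6 keratins of simple epithelia 0 lay on one side with both hairpins. Krt8 was at 7.50 and 6.75 against 6.93 and 7.53, Krt18 at 8.12 and 7.90 against 7.97 and 8.18, and Krt19 at 7.50 and 7.16 against 6.83 and 7.65. The epithelial surface protein Epcam was at 3.72 and 4.21 against 3.77 and 4.65. All 4 tumour arrays thus carried the epithelial markers at overlapping levels. Of the gastric genes, the trefoil factor Tff1 was at 6.96 and 5.13 with the hairpins against 6.31 and 5.58.

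Across the genome, the order of the arrays gave more genes higher than lower with the hairpins, while large gaps ran the other way. Both shCdh1 arrays lay above both other tumours in 3499 genes (20.1%) and below both in 2286 (13.1%). A gap was defined as the lowest level of the higher side minus the highest level of the lower side, and it reached at least 2-fold in 62 genes with the hairpins higher (0.356% of genes tested) and in 212 with the hairpins lower (1.22%). Lower genes made up 39.5% of all genes without overlap and 77.4% of those with a gap of at least 2-fold. These splits depended on the treatment of dim probes: the 77.4% was 91.9% with normexp background correction, 89.0% with dim signals raised to a floor, 90.5% among genes well above background on all 4 tumour arrays and 63.1% without a filter, and the 39.5% was 29.4% without a filter. Of the 62 higher genes 10 were well above background on all 4 tumour arrays, and of the 212 lower genes 95. No gene passed limma's test at an adjusted p of 0.05 (0 of 17405, 0.0%; the lowest adjusted p was 0.431), and 789 genes (4.53%) had an unadjusted p below 0.05 in limma, 366 higher and 423 lower. Without the Pik3caH1047R array, whose sex label is in doubt, the hairpins lay beyond Apc580D by at least 2-fold in 298 genes on the higher side and 838 on the lower, and without Apc580D they lay beyond Pik3caH1047R in 350 and 598; these counts are larger by construction, since 1 array less has to be passed. A two-sided exact permutation test of 2 arrays against 2 cannot give a p below 0.333.

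The level of the control divided these genes. Of the 212 genes lower with the hairpins by a gap of at least 2-fold, the control stood at or below the nearest shCdh1 array in 127, between the sides in 57 and at or above the nearest other tumour in 28. In the 62 higher genes the counts were 8 on the side of shCdh1, 39 between and 15 on the side of the other tumours. Thus for most of the large lower gaps the array without a Cdh1 hairpin on the same slide was as low as the hairpin arrays. The spread inside each side was of the same order as the distance between them: hairpins 1 and 2 differed at least 2-fold from each other in 2271 genes and Apc580D from Pik3caH1047R in 2420, against 2007 to 2573 for the 4 pairs of one hairpin with one other tumour.

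**Figure D2:**
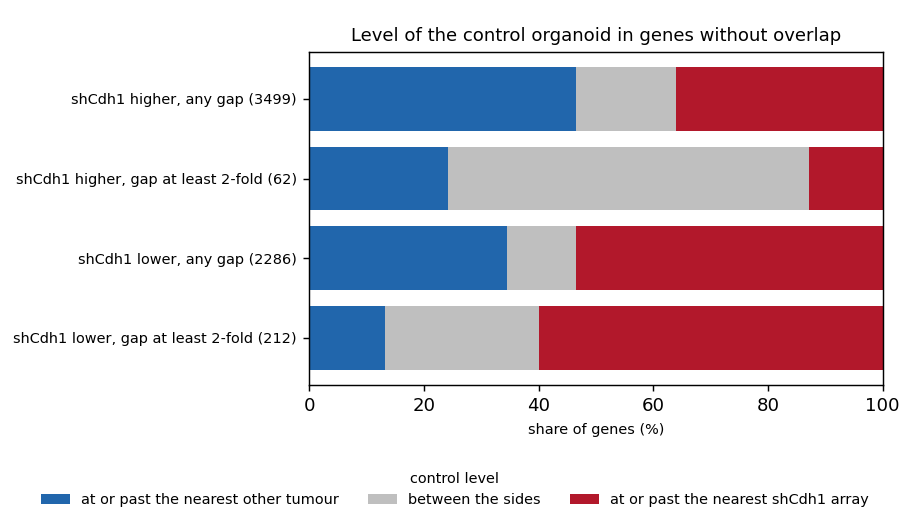
Share of genes (horizontal axis, %) by the level of the control organoid, for genes in which both shCdh1 arrays lay on one side of both other tumours; rows give the direction and the gap, with the number of genes in brackets. In the 212 lower genes with a gap of at least 2-fold the largest block is the control on the side of shCdh1 (127 genes), and in the 62 higher genes it is the control between the sides (39 genes).

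Genes with clone-type names, such as Gm or Rik names with digits, were left out wherever single genes were ranked. Among the other genes well above background on all 4 tumour arrays, the largest lower gap was that of Serpinh1, which encodes the collagen chaperone HSP47. It stood at −5.15 and −4.74 with the hairpins, −0.11 in Apc580D and 0.17 in Pik3caH1047R, a gap of 24.8-fold (difference −4.97 ± 0.26, limma adjusted p = 0.431). The control was at −5.96, below both hairpin arrays. Cdh1 followed with a gap of 18.7-fold.

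The next largest gaps were those of Rps4l, Tmem45a, Padi4 and Shisal1. Rps4l, a ribosomal protein S4 paralogue, was at −4.74 and −3.82 with the hairpins, 0.05 in Apc580D and 3.98 in Pik3caH1047R, with the control at 1.11; as a copy of a ribosomal protein gene its probe may also read related transcripts. Tmem45a was at −5.31 and −5.24 against −2.32 and −1.18, and Padi4, a peptidylarginine deiminase, at −3.42 and −2.36 against 0.63 and 0.39. In both the control lay with or below the hairpins (−5.77 and −4.05). Shisal1 was at −4.09 and −3.48 against −1.12 and −0.95, with the control between at −1.91.

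In the 6 genes that follow by size of lower gap the control lay below both hairpin arrays. Vimentin, Vim, the intermediate filament of mesenchymal cells, was at −4.44 and −4.70 with the hairpins, −1.32 in Apc580D, −2.43 in Pik3caH1047R and −5.20 in the control. The insulin-like growth factor binding protein Igfbp4 was at −3.40 and −1.75 against 0.28 and 0.95, with the control at −3.69. Sting1, the adaptor of cytosolic DNA sensing, was at 0.76 and 0.95 against 2.89 and 3.46, with the control at −0.41. The nucleoside transporter Slc28a3 had a gap of 4.30-fold and the anchoring protein gene Pakap 4.02-fold. The glycosyltransferase B4galnt2 had 4.76-fold, but its second probe differed by −0.57 only, and for Pakap the probes ranged from −2.33 to −0.25.

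Part of the lower genes lay lower with the hairpins than on all 3 other arrays, the control of the same slide included. Of the 2286 genes lower by any gap, the control stood with the other tumours in 787 and between the sides in 276. Clone-type names were left out, and only genes well above background on the 5 arrays were ranked. The largest gaps below all 3 other arrays were then those of Cdh1, Rps4l, Raet1e, Trp53i11, Shisal1 and Celf5. Raet1e, a ligand of the natural killer receptor NKG2D, was at −1.92 and −2.14 with the hairpins, −0.07 in Apc580D, 0.75 in Pik3caH1047R and 0.80 in the control. Trp53i11, a gene named for its induction by p53, was at −0.73 and −0.23 against 1.57, 1.55 and 2.63. For Celf5, an RNA-binding protein, the levels were −4.66 and −4.83 against −2.56, −3.16 and −2.74, and its second probe differed by 0.70 in the other direction. Of the 212 lower genes with a gap of at least 2-fold, 44 kept a gap of that size below all 3 other arrays, and 147 kept it with the control counted on the shCdh1 side.

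Some genes were detected in both other tumours and on neither hairpin array, and for these a fold is a lower bound. On each hairpin array the bound took the dimmest probe still well above background in place of the gene's own signal wherever the latter was lower. The bound compared the means of the sides, so a single bright array can carry it. Pitx1, a homeobox transcription factor, was at −8.15 on both hairpin arrays, not well above background, against −0.21 in Apc580D and 2.19 in Pik3caH1047R, at least 200-fold lower; the control was at −1.85 and detected. The matrix peroxidase Pxdn was at −7.99 and −5.86 with the hairpins, 1.97 in Apc580D and −4.59 in Pik3caH1047R. Its bound was 39.8-fold, but the gap between the nearest arrays was 2.41-fold. The transcription factor Sox11 was at least 27.1-fold lower (−1.38 and −2.40 in the other tumours). The neurotrophin Ntf3 was at least 17.4-fold lower, with a gap of 9.29-fold between the nearest arrays. The glucose transporter Slc2a3 was at −6.56 and −6.55 with the hairpins, 0.38 in Apc580D and −4.66 in Pik3caH1047R. Its bound was 17.1-fold but its gap 3.71-fold, and its second probe differed by −1.57. Otop1, a proton channel, gave at least 30.5-fold from one probe while its other probe differed by 0.32 in the opposite direction. Except for Pitx1, the control of these genes was not well above background either.

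**Figure D3:**
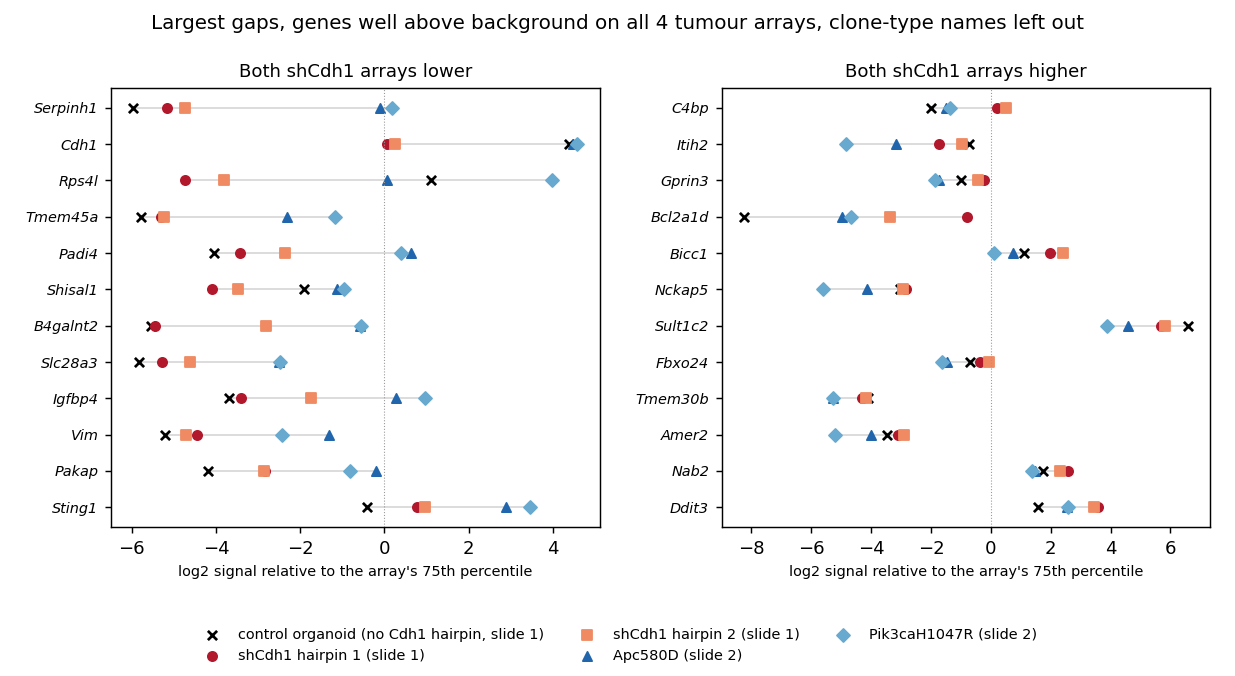
Log2 level relative to the array's 75th percentile (horizontal axis) of the 12 genes with the largest gap in each direction among genes well above background on all 4 tumour arrays, clone-type names left out, with 1 point per array; the grey line spans the 5 arrays. On the left the control lies beside or below the hairpins for Serpinh1 (−5.96) and Vim (−5.20) but beside the other tumours for Cdh1 (4.39); on the right the gaps are smaller, from 2.98-fold for C4bp to 1.81-fold for Nab2.

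Genes higher with the hairpins had smaller gaps. C4bp, the complement inhibitor C4b-binding protein, was at 0.20 and 0.49 with the hairpins against −1.49 in Apc580D, −1.38 in Pik3caH1047R and −1.99 in the control, so both hairpin arrays lay above all others by a gap of 2.98-fold (difference 1.78 ± 0.22, limma adjusted p = 0.827). The RNA-binding protein gene Bicc1 was at 1.97 and 2.40 against 0.73, 0.11 and 1.10. Ddit3, which encodes the stress transcription factor CHOP, was at 3.59 and 3.43 against 2.53, 2.57 and 1.59. These 3 genes lay above every other array. The chemokine Ccl20 (0.69 and 2.53 against −0.16, −1.15 and −0.26) and the bile acid transporter Slc10a2 (0.60 and 0.63 against −0.17, −1.37 and −0.61) did so as well.

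In 3 other higher genes the control lay with the hairpins. The inter-α-trypsin inhibitor chain Itih2 was at −1.75 and −0.98 with the hairpins, −3.17 in Apc580D, −4.83 in Pik3caH1047R and −0.74 in the control. Sult1c2, a sulfotransferase of the pit cells that cover the gastric surface, was at 5.69 and 5.82 against 4.57 and 3.87, with the control at 6.59. The flippase subunit Tmem30b was at −4.32 and −4.18 against −5.28 and −5.29, with the control at −4.09. Bcl2a1d, an anti-apoptotic Bcl2 relative with close paralogues that the probe may share, was at −0.79 and −3.37 against −4.99 and −4.68, a gap of 2.48-fold in which the hairpins themselves lay further apart than the sides and the control, at −8.25, lay below all 4. For genes detected on both hairpin arrays and on neither other tumour array the largest bounds were small, at least 4.86-fold for the RNA-editing factor A1cf, one of whose probes differed by 0.18 only, and 4.72-fold for the nuclear receptor interactor Nrip2.

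Interferon-stimulated genes formed the list with the most members lower by a gap of at least 2-fold. Of 29 tested, both shCdh1 arrays lay below both other tumours in 18, against 13.1% of all genes, and above both in 0; 6 had a gap of at least 2-fold, against 1.22%. The median difference was −1.34 and 28 of 29 differences were negative. These genes are induced by type I interferon through a transcription factor complex that binds the interferon-stimulated response element in their promoters.

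The promoters of members that lay lower with both hairpins are shown because they carry that element. RefSeq promoters of assembly GRCm38.p6, 250 bases before to 50 after the start, were searched for GAAANNGAAA on both strands, TTTCNNTTTC as read on the other. Of the 18 lower members 13 had a promoter in the table and 8 of these held a match; of the 11 other members 8 had a promoter and 6 held a match, so a match did not set the lower members apart from the rest of the list. A match occurred in 3.44% of all 32851 promoters in the table and in 3.54% of the 13744 genes tested that have one. The 250 bases before the start are printed 5′ to 3′ on the gene's strand, with the bases of each match in capitals. Isg15 lies at chr4:156200819-156201068 (minus strand), Ifit1 at chr19:34640639-34640888 (plus strand), Ifit3 at chr19:34583279-34583528 (plus strand) and Oas1a at chr5:120907526-120907775 (minus strand).
Isg15: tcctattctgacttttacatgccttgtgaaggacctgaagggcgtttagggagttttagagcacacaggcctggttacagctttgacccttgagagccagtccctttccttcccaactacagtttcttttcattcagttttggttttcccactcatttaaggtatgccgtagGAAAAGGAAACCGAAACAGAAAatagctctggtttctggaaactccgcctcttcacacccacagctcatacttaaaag
Ifit1: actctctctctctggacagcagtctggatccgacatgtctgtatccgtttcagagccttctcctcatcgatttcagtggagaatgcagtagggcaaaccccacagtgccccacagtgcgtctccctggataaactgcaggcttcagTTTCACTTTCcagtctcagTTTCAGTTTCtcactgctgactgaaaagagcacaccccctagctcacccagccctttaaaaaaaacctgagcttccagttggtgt
Ifit3: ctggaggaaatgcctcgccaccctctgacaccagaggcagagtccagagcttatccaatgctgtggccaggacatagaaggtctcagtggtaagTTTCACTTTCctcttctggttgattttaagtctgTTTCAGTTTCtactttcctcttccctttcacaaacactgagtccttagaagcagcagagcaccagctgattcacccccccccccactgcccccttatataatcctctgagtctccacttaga
Oas1a: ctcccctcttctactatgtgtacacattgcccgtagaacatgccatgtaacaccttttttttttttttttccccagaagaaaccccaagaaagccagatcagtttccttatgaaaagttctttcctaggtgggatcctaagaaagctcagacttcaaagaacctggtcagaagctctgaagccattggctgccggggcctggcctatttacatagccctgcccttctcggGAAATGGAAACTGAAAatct
In Isg15 the matches overlap into 1 run that begins 78 bases before the start, in Ifit1 they begin 104 and 85 bases before it, in Ifit3 156 and 122, and in Oas1a 20 and 14. A match describes the letters of the window and is no measured binding site.

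The effector genes with these promoters lay lower with the hairpins than in either other tumour. Isg15, a ubiquitin-like modifier, was at 0.75 and 0.55 with the hairpins, 2.63 in Apc580D and 1.95 in Pik3caH1047R (difference −1.64 ± 0.32). The RNA-binding antiviral genes Ifit1 and Ifit3 were at −3.36 and −3.19 against −0.71 and −1.92, and at −3.07 and −3.73 against −0.83 and −2.14. Oas1a, an oligoadenylate synthetase, was at 1.76 and 1.16 against 3.11 and 2.75. In each the Apc580D array was the highest. The control was at −1.06 for Isg15, −4.60 for Ifit1 and −4.28 for Ifit3, below both hairpins, and at 2.36 for Oas1a, between the sides.

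The largest gap in the list was that of Rtp4, a chaperone of G-protein-coupled receptors and a regulator of interferon responses. It was at −0.98 and −0.82 with the hairpins against 2.37 and 0.68, with the control at −0.93. Ifi27 was at 0.80 and 0.11 against 2.78 and 2.08, and Ifi27l2a at −2.99 and −3.23 against −1.84 and −1.70. Oas2 was at −3.33 and −5.11 against −1.14 and −2.12, though another of its probes differed by 0.13. The regulators of the response varied in size of difference. Irf7, the factor that amplifies interferon output, was at 1.74 and 0.44 against 2.68 and 2.46, and Irf9 at 0.25 and 0.22 against 1.75 and 0.92, with the control at 1.46 and 0.56. Stat2 lay lower by a gap of 0.05 only and the RNA sensor Ifih1 by 0.08, while the chemokine Cxcl10 overlapped (1.54 and 2.06 against 2.64 and 1.74). The guanylate-binding protein Gbp2 was the single member with a positive difference, 0.15 ± 0.59.

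Relative to the control the list was not low with the hairpins. Its median was 0.63 above the control with hairpin 1 and 0.45 with hairpin 2, against 2.95 in Apc580D and 1.20 in Pik3caH1047R. Of the 18 lower members, the control lay at or below the nearest hairpin array in 14, between in 3 and with the other tumours in 1. Without the Apc580D array the median difference was −0.68, with 18 members lower than Pik3caH1047R and 1 higher; without the Pik3caH1047R array it was −1.65, with 27 lower than Apc580D. Normexp background correction gave a median of −0.65 and 17 members lower. Antigen presentation genes, many of which respond to interferon γ, had 3 of 19 members higher and 0 lower, with a median of 0.06. Without Pik3caH1047R it was 0.04, without hairpin 1 0.62 and without hairpin 2 −0.19.

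**Figure D4:**
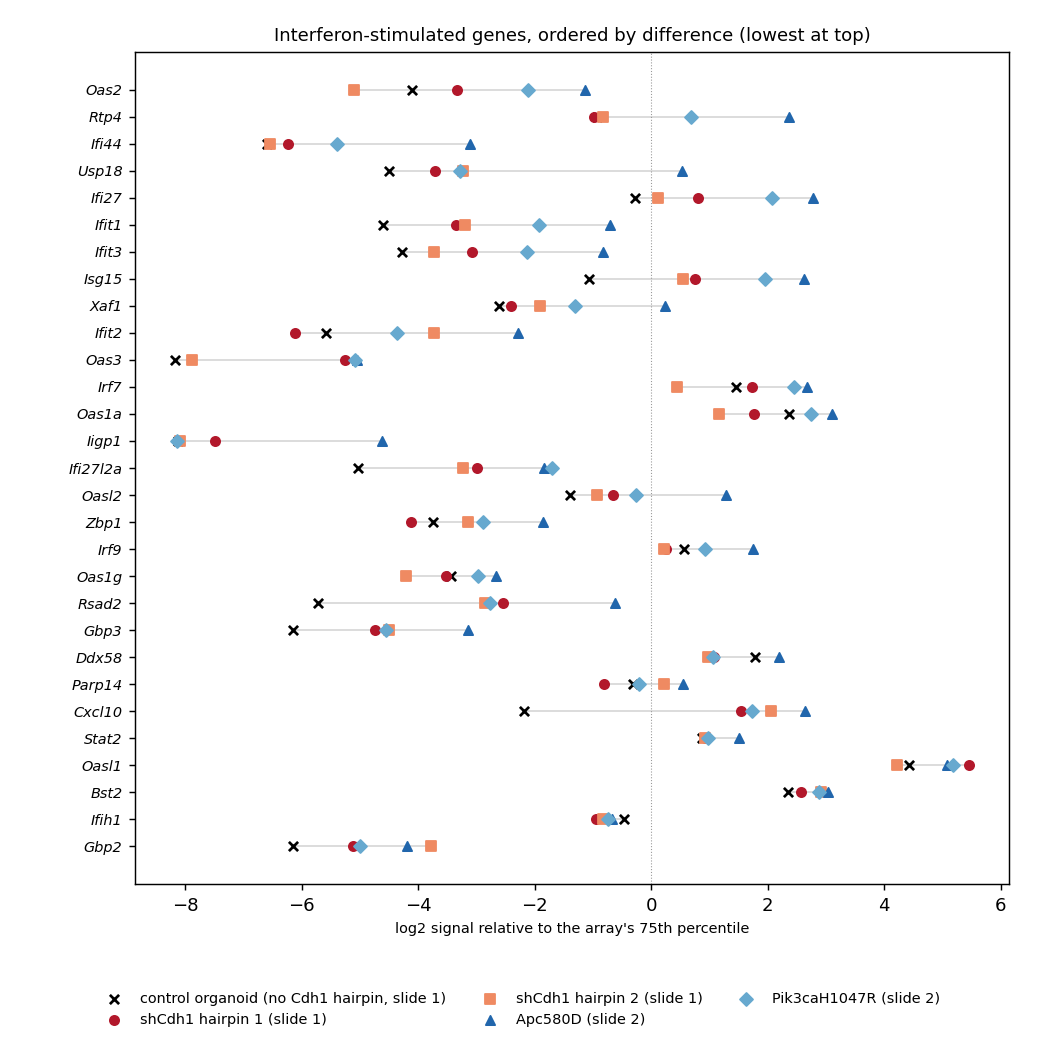
Log2 level relative to the array's 75th percentile (horizontal axis) of the 29 interferon-stimulated genes tested, 1 point per array, ordered by the difference between the sides with the lowest at the top. In most rows Apc580D is the highest array. Isg15, for example, is at 2.63 in Apc580D, 1.95 in Pik3caH1047R, 0.75 and 0.55 with the hairpins and −1.06 in the control.

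Wnt target genes lay lower with the hairpins, further below Apc580D than below Pik3caH1047R. Of 29 tested, 9 lay below both other tumours and 0 above, with a median difference of −0.82. Ascl2, a stem cell transcription factor, was at 1.93 and 1.68 with the hairpins against 3.39 in Apc580D, 2.84 in Pik3caH1047R and 2.89 in the control. The ubiquitin ligases that dampen Wnt receptors, Rnf43 (3.18 and 3.31 against 4.11 and 3.80) and Znrf3 (−0.27 and −0.11 against 1.18 and 0.08), and the feedback scaffold Axin2 (−2.43 and −1.18 against 1.13 and −0.83) also lay lower. The control was at 3.17 for Rnf43, −0.24 for Znrf3 and −1.19 for Axin2, level with or below the higher hairpin array. The stem cell receptor Lgr5 differed by −0.29 ± 0.23 (2.25 and 2.58 against 2.66 and 2.75). Without Apc580D, the array with a lesion in the β-catenin destruction complex, the median difference was −0.14, with 14 members below Pik3caH1047R and 4 above; without Pik3caH1047R it was −1.38. Relative to the control the medians were 0.16 and 0.27 with the hairpins, 1.42 in Apc580D and 0.36 in Pik3caH1047R. Myc overlapped (1.46 and 1.91 against 1.61 and 1.81), as did cyclin D1, Ccnd1 (3.94 and 4.75 against 4.31 and 4.03).

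Among 16 Wnt ligands and secreted modulators, 5 lay lower with both hairpins and 2 higher, with a median of −0.68. Wnt7a was at −1.72 and −0.59 against 1.38 and 0.23, with the control at −3.12. Wnt5a, a non-canonical ligand, was at −4.22 and −1.78 against −1.25 and −1.76. The hairpins differed from each other by more than 1 on the log2 scale in both. The list's median was −0.17 without Apc580D, −1.39 without Pik3caH1047R, −0.26 without hairpin 1 and −1.21 without hairpin 2. Normexp gave −0.26 with 2 members lower, and leaving dim genes in gave −0.20 with 6 higher.

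Genes of the TGF-β and BMP pathway had 10 of 31 members lower with both hairpins and 1 higher, with a median of −0.37. The BMP target Id1, an inhibitor of differentiation factors, was at 1.69 and 2.19 with the hairpins against 3.38 in Apc580D and 3.45 in Pik3caH1047R, with the control between at 2.58. Id3 was at −0.57 and −1.79 against 0.81 and −0.17. The activin antagonist follistatin, Fst, was at −2.34 and −2.71, against −0.37 in Apc580D, a difference between the sides of −1.83 ± 0.32, with the control at −4.86. The latent TGF-β binding proteins Ltbp1 (−3.41 and −3.35 against −2.31 and −2.50) and Ltbp2 (−5.27 and −5.17 against −4.32 and −4.26) lay lower by gaps of 0.85 each. The one higher member was the BMP antagonist Nog, at −2.03 and −2.44 against −2.84 and −2.62. The medians without Apc580D and without Pik3caH1047R were −0.20 and −0.90. The median was −0.56 without hairpin 2 and −0.20 with normexp.

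Mesenchymal genes and the factors of epithelial-to-mesenchymal transition were not higher with the hairpins. Of 18 mesenchymal genes, 5 lay lower with both hairpins and 2 higher, with a median of −0.48. That median was −0.04 without hairpin 1, −1.32 without hairpin 2, −0.11 without Apc580D and −0.32 without Pik3caH1047R. It was −0.13 with normexp and −0.09 without the filter on dim genes, where 4 lay higher. Vim lay lower, as given above, and so did Sparc, a matrix glycoprotein (−3.84 and −2.97 against 1.86 and −2.46, with the control at −3.74), and the fibronectin receptor subunit Itga5 (−6.23 and −4.58 against −3.36 and −2.76). Collagen I followed both ways, with Col1a1 lower (−6.07 and −4.60 against −4.00 and −4.35) and Col1a2 higher by a gap of 0.05. Fibronectin, Fn1, overlapped at 2.45 and 4.49 against 5.03 and 3.30.

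Of 13 transcription factors of the transition tested, 8 were well above background on all 4 tumour arrays. The summed linear signal of all 13 was 1440% and 2490% of the 75th percentile with the hairpins, 2750% in Apc580D and 2050% in Pik3caH1047R. Twist1, Snai1 and Zeb2 were dim. Twist1 was at −6.80 and −5.00 with the hairpins against −2.96 and −1.82, a gap of 2.04 on the log2 scale, and Snai1, a repressor of Cdh1, at −6.45 and −8.16 against −4.05 and −5.07; Snai1 was well above background only in the other tumours. The control was low for both (−7.09 and −8.37). Zeb2 overlapped (−6.45 and −6.31 against −6.96 and −6.35), and of 13 factors 3 lay lower and 2 higher. Their median was −0.38, but 0.23 without Apc580D, 0.16 without hairpin 1 and −0.50 without Pik3caH1047R. It was −0.04 with normexp, −0.0 with dim signals raised to a floor, −0.24 without the filter and 0.01 among members well above background on all 4 tumour arrays, of which 1 lay lower.

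Squamous genes had 8 of 16 members lower with both hairpins and 3 higher, with a median of −0.50. The basal keratin Krt14 was at −4.07 and −3.87 against −2.24 in Apc580D and −0.54 in Pik3caH1047R, and its low control (−4.83) lay with the hairpins. Krt15 was at −5.96 and −6.69 against −4.05 and −4.70, with the control highest at −3.32. Krt17 (−3.61 and −4.10 against −0.57 and −3.44) and Krt6a (−1.85 and −1.87 against −1.50 and 0.58) lay close to the nearer of the other tumours and far from the other. Involucrin, Ivl, ran the other way, at −4.16 and −3.80 against −4.45 and −4.95. The medians were −0.53 without Apc580D and −0.28 without Pik3caH1047R, but 0.02 without the filter on dim genes, −0.25 with normexp and −0.24 among members well above background on all 4 tumour arrays.

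In the list of genes of the placenta and the 2-cell embryo most members lay lower with the hairpins. The members named below were lowest in the control. The list's summed linear signal did not separate the sides. It was 7250% and 5150% of the 75th percentile with the hairpins, 6450% in Apc580D, 7680% in Pik3caH1047R and 3280% in the control. Of 13 tested, 8 lay below both other tumours and 1 above, with a median of −2.40. Zscan4c, which marks a 2-cell-like state, was at −1.85 and −5.06 with the hairpins against −0.18 and −0.71, and Zscan4f at −0.19 and −3.88 against 1.16 and 0.96. Tcstv3 was at 1.72 and −1.94 against 3.22 and 2.67, and Pramel39 at −0.10 and −2.49 against 1.59 and 1.02. In each the order was Apc580D, Pik3caH1047R, hairpin 1, hairpin 2 and then the control, which stood at −7.26 for Zscan4c and −4.87 for Tcstv3. Without hairpin 1 the list's median was −3.65, without hairpin 2 −1.12, without Pik3caH1047R −2.76 and with normexp −1.32. These families have close paralogues, so single members are uncertain.

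Of 22 imprinted genes, 8 lay lower with both hairpins and 2 higher, with a median of −0.20. It was −0.41 without hairpin 2, −0.29 without Pik3caH1047R and −0.03 with normexp. The non-coding RNA H19 was at −4.20 and −1.98 against 0.15 and −0.24, with the control between at −1.69. The growth inhibitor Cdkn1c was at 1.88 and 1.17 against 2.72 and 2.56. Necdin, Ndn, was at −8.14 and −4.16 against 0.58 and −3.36. Its hairpin arrays and its other tumours each spanned more than 3 on the log2 scale.

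Several lists leaned to the higher side with small differences. DNA replication genes had 12 of 28 members higher with both hairpins, against 20.1% of all genes, and 0 lower, with a median of 0.22. The helicase subunit Mcm6 was at 5.09 and 5.10 against 4.70 and 4.89, the clamp loader subunit Rfc5 at 3.92 and 3.91 against 3.29 and 3.45, and thymidylate synthase, Tyms, at 3.71 and 3.30 against 2.67 and 3.07. The ribonucleotide reductase subunit Rrm2 was at 3.94 and 3.85 against 2.53 and 3.79. In 9 of the 12 the control lay at or below the nearest other tumour. Without Apc580D the median was 0.09, with 15 members above Pik3caH1047R and 10 below; without Pik3caH1047R it was 0.40, with 22 above Apc580D. Of 27 mitotic genes 1 lay higher and 0 lower, or 4 lower with quantile normalization.

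Immediate early genes had 8 of 22 members higher with both hairpins and 1 lower, with a median of 0.33. Egr1, a transcription factor induced by growth factors, was at 2.87 and 3.74 against 2.13 and 0.84, with the control at 1.81. Its corepressor Nab2, which was not on the list, was at 2.58 and 2.32 against 1.47 and 1.38. Klf6 was at 3.54 and 3.85 against 3.06 and 3.29. The medians were 0.19 without Apc580D, 0.34 without Pik3caH1047R and 0.12 without hairpin 2. The ERK phosphatases Dusp6 (3.79 and 3.64 against 3.03 and 3.18) and Dusp5 (a difference of 0.83 ± 0.20, with the other tumours at −3.91 and −3.73) also lay higher. The control was lower than both sides for Dusp6 (2.80) and Dusp5 (−4.73). Of 19 Ras-ERK feedback genes 7 lay higher and 2 lower. Among 13 EGF ligands and ErbB receptors 4 lay higher and 0 lower, with epiregulin, Ereg, at −1.70 and −1.09 against −2.32 and −2.64 and the ligand Hbegf at 3.57 and 3.43 against 2.69 and 3.05.

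NF-κB and chemokine genes had 9 of 29 members higher and 3 lower, with a median of 0.19. Ccl20 had the largest difference, 2.26 ± 0.77. The cytokine gene Tnf was at −0.52 and 0.37 against −0.60 and −0.75, and the feedback inhibitor Tnfaip3 at 2.20 and 1.97 against 1.75 and 1.65. Cxcl16 was at 2.15 and 2.40 against 1.90 and 1.77. In 8 of the 9 the control lay at or below the nearest other tumour, the higher of the 2. The medians were 0.43 without Apc580D, 0.02 without Pik3caH1047R, 0.56 without hairpin 1 and 0.08 without hairpin 2.

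p53 target genes had 6 of 33 members higher (18.2%) and 3 lower (9.09%), against 20.1% and 13.1% of all genes. By these counts the list did not stand out from all genes. Trp53 itself was low on both sides. Phlda3, a repressor of Akt, was lower, at −0.76 and 0.09 against 1.52 and 1.34, with the control at 4.39. The cell cycle gene Ccng1 was higher by a gap of 0.12. Stem and lineage genes of the stomach outside the Wnt list showed few large differences. The antral stem cell marker Aqp5 was at 5.55 and 5.05 against 6.30 and 6.32, with the control at 6.40. Aqp4 had a larger gap, at −3.44 and −3.13 against −1.21 and −0.24, with the control at −2.45. Its probes ranged from −2.56 to 0.49. Of 12 parietal cell markers 3 lay lower and 1 higher, and of 21 gastric stem and progenitor markers 5 lay lower and 4 higher. Of 12 pit cell markers 2 lay higher, Sult1c2 among them, and 1 lower.

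**Figure D5:**
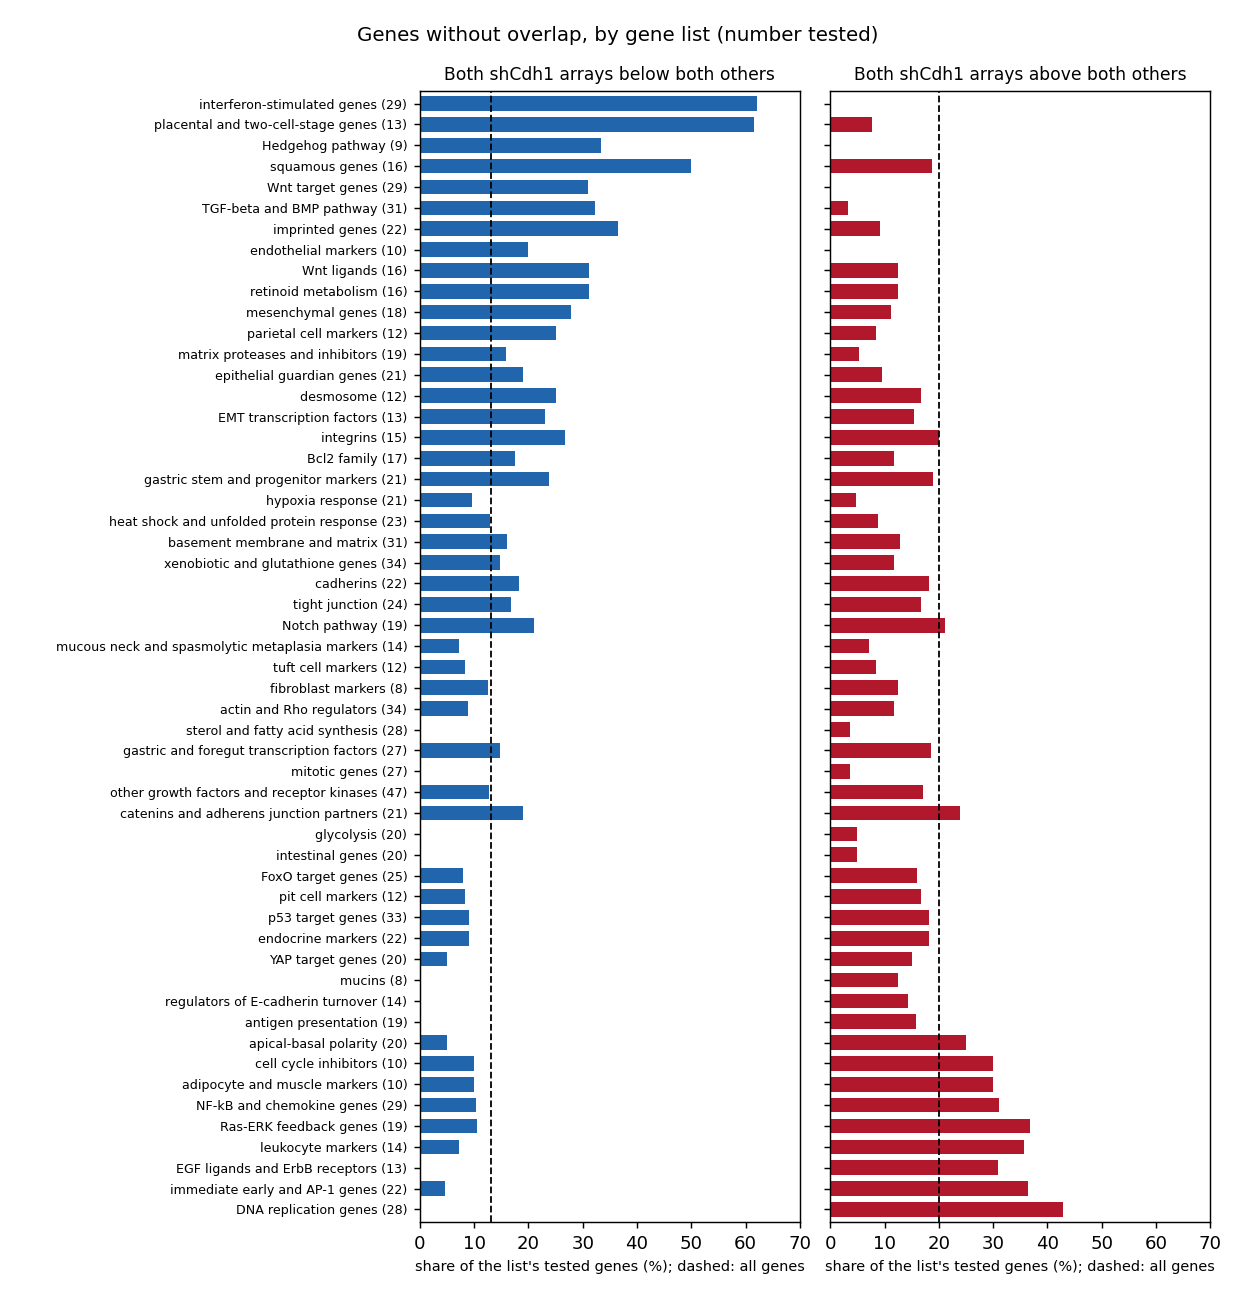
Share of tested genes (horizontal axes, %) in each gene list with at least 8 of them, the targeted and sex-linked genes left out, in which both shCdh1 arrays lay below both other tumours (left) or above both (right); the number tested is in brackets and the dashed lines are the shares over all genes, 13.1% and 20.1%. Interferon-stimulated genes (18 of 29) and placental and 2-cell-stage genes (8 of 13) extend furthest on the left, and DNA replication genes (12 of 28) on the right.

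Markers of other cells that a tumour-derived culture could hold differed in level between lists. The summed linear signal of 8 fibroblast markers was 13.4% of the 75th percentile in the control, 16.6% and 19.6% with the hairpins, 35.7% in Apc580D and 17.4% in Pik3caH1047R. Of these 8, all were well above background in Apc580D, against 4 and 6 with the hairpins and 4 in Pik3caH1047R, with decorin, Dcn, at −3.25 in Apc580D and at −7.01 or below on the other tumour arrays. Sparc was highest in that array as well, and the part of such cells in the results on mesenchymal genes was not tested. The leukocyte markers Ptprc (−4.86 and −4.75 against −4.63 and −6.10) and Cd8a were dim. Others lay near the 75th percentile: Cd4 (0.16 and 0.13 against −0.14 and −0.07), Cd3e (−0.02 and −0.22 against −0.39 and −0.26) and Csf1r (0.36 and −0.21 against −0.36 and −0.24). The control, taken before inoculation, was near it as well, at −0.11, −0.25 and −0.07. A second probe differed in the opposite direction for Cd4 (−0.31) and Cd3e (−0.15), and in the same direction for Csf1r (0.33). The summed signal of 14 leukocyte markers was 1740% and 2240% of that percentile with the hairpins. It was 1850% in Apc580D, 2140% in Pik3caH1047R and 1290% in the control. Of these 14, 5 lay higher with both hairpins and 1 lower. The endothelial marker Pecam1 was between −4.58 and −4.19 on the 4 tumour arrays. The summed signal of 10 endothelial markers was 528% and 920% of the 75th percentile with the hairpins. It was 595% in Apc580D, 806% in Pik3caH1047R and 883% in the control. In bulk RNA, fewer cells of a type and less RNA per cell cannot be told apart.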

How the data were processed

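Total RNA of each organoid sample was labelled with Cy3 and hybridised to 1-colour Agilent arrays, per the labels' protocols, and scanned images were read with Agilent Feature Extraction (version 11.0.1.1), per the submitters' processing notes. Per the file headers, the scanner files that the authors deposited hold a background-subtracted intensity per spot, with no normalization between arrays. The deposited value table holds log2 values; its differences from hairpin 1 matched those of the scanner values with slope 1 and correlation 1 over 53335 probes (column medians −0.057 for the control, 0.074 and 0.031 for the hairpins, −0.08 for Apc580D and 0.022 for Pik3caH1047R), so scale and direction are settled and the baseline subtracted per probe is unknown.

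Levels are log2 processed signal minus the array's 75th percentile over 59305 non-control spots, of which 61.8% to 65.3% were well above background. Outlier spots (78 to 114 per array) were left out, and no spot was saturated. Repeated spots were averaged; 34549 of 56605 probes were named through their accession and a RefSeq table of GRCm38.p6, used for names only, and 22024 had no name. A gene took its brightest probe. Of 23779 genes, the 17405 with a probe well above background on at least 1 tumour array were tested. For 7419 of these with several probes, probes moved over 2-fold in opposite directions in 23. Sides were compared with limma 3.58.1 in R 4.3.3 (lmFit, eBayes, two-sided, 2 residual degrees of freedom, Benjamini-Hochberg over all genes tested), after a check on simulated data. Errors after ± are limma standard errors. The number of arrays limits the precision.

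Named genes were those with the largest gaps (12 per direction among genes well above background on all 4 tumour arrays), the 6 largest bounds, the 6 largest gaps against all 3 other arrays and with the control on the shCdh1 side, the targeted genes and the list members with the largest differences; further members were named to describe a list, after their values were seen, and not every gene the rule gives is printed. The members and gene lists were chosen with earlier results of these data known. Some genes are not reported here.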

Additional observations from a re-analysis of the deposited data

How the results depend on the processing

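No gene passed limma's adjusted p of 0.05 under any of the 12 alternatives run, with 611 to 1211 genes at an unadjusted p below 0.05. Genes with both shCdh1 arrays above both other tumours numbered 6303 without the filter on dim genes. Genes higher by a gap of at least 2-fold numbered 5 with normexp correction, 18 with dim signals raised to a floor, 143 without the filter and 10 when well above background on all 4 tumour arrays; lower ones numbered 57 with normexp and 95 when well above background on all 4. Leaving out 1 array, which raises such counts by construction, gave 6105 to 6982 above both, 4826 to 5549 below both, and 235 to 350 higher and 590 to 838 lower by a gap of at least 2-fold. The median difference of the catenins and adherens junction partners was −0.18 with normexp, −0.17 with quantile normalization, −0.09 with the mean of a gene's probes, −0.10 among genes well above background on all 4 and −0.10 to −0.0 when 1 array was left out. That of the immediate early genes was 0.24 with normexp and 0.12 to 0.35 without 1 array, and that of the interferon-stimulated genes −0.65 with normexp and −1.65 to −0.68 without 1 array. For the TGF-β and BMP pathway it was −0.90 to −0.20 without 1 array. The Trp53 difference reversed without Apc580D (−0.22, with a range of −0.22 to 0.78 over the arrays left out). The cause of these shifts was not tested. No paired analysis was possible because the groups compared share fewer than 2 replicate numbers, and slide as a block could not be fitted, since it coincides with the comparison. For the other gene lists, alternatives that turned or moved a median by over 1.5 times are given in the text beside it, except for medians below 0.1 in size.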
